A study of Mus musculus with 8 samples.

Results

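The CXC chemokine ligands were followed in fibro-adipogenic progenitors (FAPs), the mesenchymal progenitors of skeletal muscle, after injury with and without the transcription factor Osr1. The members were the 10 gene symbols Cxcl1, Cxcl2, Cxcl5, Cxcl9, Cxcl10, Cxcl11, Cxcl12, Cxcl13, Cxcl14 and Cxcl16, out of 55276 symbols in each library. They were listed by name, with earlier results of these data known. RNA came from Lin- GFP+ cells sorted from the tibialis anterior muscle at 3 and 7 days after a freeze-pierce injury (dpi). The GFP marks cells whose Osr1 allele was recombined, and all mice carried the tamoxifen-inducible CAGG-Cre, a driver that is active in most cell types.

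Control animals (Ctrl) were Osr1 flox/+ CAGG Cre+ and thus lost 1 of their Osr1 alleles, while Osr1cKO animals (cKO) were Osr1 flox/flox CAGG Cre+. Tamoxifen was given to both on the day of injury and on the following days, and mice were 4 to 6 months old. Each of the 4 groups had 2 libraries. A library held cells of 1 mouse at 3 dpi and of 4 pooled mice at 7 dpi, and the methods name a pair of sequencing instruments while the labels give 1, so that day, pooling and instrument cannot be told apart. Because Cre was not restricted to FAPs, loss of Osr1 in other cells of the animal is part of the genotype.

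CXC chemokines are small secreted proteins that guide leukocytes through G protein-coupled receptors. Cxcl1, Cxcl2 and Cxcl5 act on Cxcr2 and draw neutrophils into damaged tissue. Cxcl9, Cxcl10 and Cxcl11 are induced by interferons and act on Cxcr3 of activated T cells and natural killer cells. Cxcl12 holds Cxcr4+ cells in place and is also taken up by the scavenging receptor Ackr3, Cxcl13 attracts Cxcr5+ B cells, and Cxcl16 is made as a membrane protein that binds Cxcr6. Cxcl14 is a tissue-resident chemokine whose receptor is less settled.

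Most of these genes share a chromosome. On mm10 (GRCm38), Cxcl5 lay at chr5:90759360-90761624, Cxcl1 at chr5:90891241-90893115 and Cxcl2 at chr5:90903871-90905938, all on the plus strand. Cxcl9 at chr5:92321347-92328079, Cxcl10 at chr5:92346638-92348889 and Cxcl11 at chr5:92359544-92365485 were neighbours on the minus strand. Cxcl13 was at chr5:95956951-95961068 on the plus strand. Cxcl12 lay on the plus strand of chromosome 6 (117168535 to 117181367), Cxcl14 on the minus strand of chromosome 13 (56288643 to 56296551) and Cxcl16 on the minus strand of chromosome 11 (70453983 to 70459984). The annotation calls Cxcl11 a polymorphic pseudogene and the other 9 protein coding. Exons of genes on the opposite strand overlapped those of Cxcl11 (1582 bp, Gm2673), Cxcl16 (552 bp, Zmynd15) and Cxcl10 (133 bp, Art3), and whether the counting used strand is not given in the sources used here. Cxcl1, Cxcl2 and the related Cxcl3 are similar in sequence, and how reads that matched more than 1 of them were counted was not given either.

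The 250 bases before the start site of 5 members are printed because they belong to the genes whose levels are compared most closely: Cxcl1 and Cxcl2 as a neighbouring pair of neutrophil attractants, Cxcl9 and Cxcl10 as a neighbouring pair of interferon-induced genes, and Cxcl14 as the second most abundant member. The sequences are from RefSeq (GRCm38.p6), which had a window for 7 of the 10 members and none for Cxcl5, Cxcl11 and Cxcl16. They cover chr5:90890995-90891244 (Cxcl1, plus), chr5:90903649-90903898 (Cxcl2, plus), chr5:92328080-92328329 (Cxcl9, minus), chr5:92348890-92349139 (Cxcl10, minus) and chr13:56296552-56296801 (Cxcl14, minus), each written 5′ to 3′ on the strand of its gene. Capitals mark matches, on either strand, to the kappaB motif, to the core of the interferon-stimulated response element (ISRE, GAAANNGAAA) or to the gamma-activated site (GAS, TTCNNNGAA). Matches that overlap were merged in capitals.
Cxcl1: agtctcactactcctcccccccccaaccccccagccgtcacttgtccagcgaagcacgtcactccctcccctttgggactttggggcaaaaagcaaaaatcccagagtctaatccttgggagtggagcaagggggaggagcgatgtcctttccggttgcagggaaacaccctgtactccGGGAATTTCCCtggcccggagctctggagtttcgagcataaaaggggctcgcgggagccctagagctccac
Cxcl2: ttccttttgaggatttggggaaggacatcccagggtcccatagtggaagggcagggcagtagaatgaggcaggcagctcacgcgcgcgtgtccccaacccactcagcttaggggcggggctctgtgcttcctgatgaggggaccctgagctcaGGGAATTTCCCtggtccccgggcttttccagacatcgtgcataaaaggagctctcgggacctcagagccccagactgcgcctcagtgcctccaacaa
Cxcl9: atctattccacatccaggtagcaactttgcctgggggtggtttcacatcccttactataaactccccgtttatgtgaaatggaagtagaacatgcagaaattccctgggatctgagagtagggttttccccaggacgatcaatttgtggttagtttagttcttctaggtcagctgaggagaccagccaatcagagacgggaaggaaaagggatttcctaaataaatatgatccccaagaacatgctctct
Cxcl10: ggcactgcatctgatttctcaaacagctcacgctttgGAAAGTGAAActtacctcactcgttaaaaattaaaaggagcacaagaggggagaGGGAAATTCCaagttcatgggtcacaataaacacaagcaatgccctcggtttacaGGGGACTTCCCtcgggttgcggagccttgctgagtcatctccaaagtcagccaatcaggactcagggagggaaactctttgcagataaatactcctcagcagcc
Cxcl14: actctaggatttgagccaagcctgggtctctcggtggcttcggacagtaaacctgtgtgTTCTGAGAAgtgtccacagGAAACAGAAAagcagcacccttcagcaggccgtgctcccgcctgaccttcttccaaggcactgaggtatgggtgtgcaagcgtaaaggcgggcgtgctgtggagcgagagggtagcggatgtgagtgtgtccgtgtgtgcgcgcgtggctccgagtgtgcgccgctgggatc

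Cxcl1 and Cxcl2 each held 1 stretch that matched the kappaB motif on both strands, with its first base 71 and 97 bases before the start, and its letters were the same in both genes. Cxcl10 held 1 ISRE core, 213 bases before the start, and 3 kappaB matches, of which 2 overlapped. Cxcl14 held a GAS match and an ISRE core. None of these motifs was found in the windows of Cxcl9, Cxcl12 and Cxcl13. Among 32851 RefSeq windows of the same length, 7.25% held a kappaB match, 2.98% an ISRE core and 7.02% a GAS match, so a match describes the letters of a window and is not evidence of a bound site.

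Expression is given as TPM, the length-normalized share of a gene in all transcripts of a library, scaled to the same sum in each. From the smallest steps in the values, the libraries were found to hold between 36516548 and 51096425 fragments. Osr1, the targeted gene, was measured over its whole length at 105.0 and 91.0 TPM in Ctrl and at 70.7 and 71.9 TPM in cKO at 3 dpi, and at 67.6 and 71.6 against 64.4 and 60.8 TPM at 7 dpi; both cKO libraries were below both Ctrl libraries at each day. The 8 FAP markers summed to between 26936 and 54447 TPM. The 10 macrophage and monocyte markers summed to between 11.9 and 22.4 TPM at 3 dpi and to between 45.9 and 70.3 TPM at 7 dpi, with the pan-leukocyte gene Ptprc at no more than 0.216 TPM. The 7 lymphoid markers summed to between 0.0248 and 4.40 TPM, the 5 neutrophil markers to between 0.999 and 17.2 TPM, the 6 endothelial markers to between 17.2 and 72.0 TPM and the 6 muscle stem cell and myofiber markers to between 1.77 and 41.1 TPM. In bulk RNA, fewer cells of a type and less RNA per cell cannot be told apart.

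CXC ligand transcripts were abundant in these FAPs. Summed over the 10 members, they reached between 5955 and 7873 TPM at 3 dpi and between 4441 and 5021 TPM at 7 dpi. Cxcl1 had the highest mean TPM in all 4 groups and made up between 28.9% and 40.5% of the sum at 3 dpi and between 52.3% and 59.5% at 7 dpi. Cxcl14 came next in all 4 groups, with between 23.1% and 37.5% of the sum at 3 dpi and between 11.8% and 17.1% at 7 dpi. Cxcl10 was number 3 of 10 in Ctrl at both days, number 4 in cKO at 3 dpi and number 6 in cKO at 7 dpi. Cxcl16 and Cxcl13 stood near the bottom, and Cxcl11 was last throughout.

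**Figure D1:**
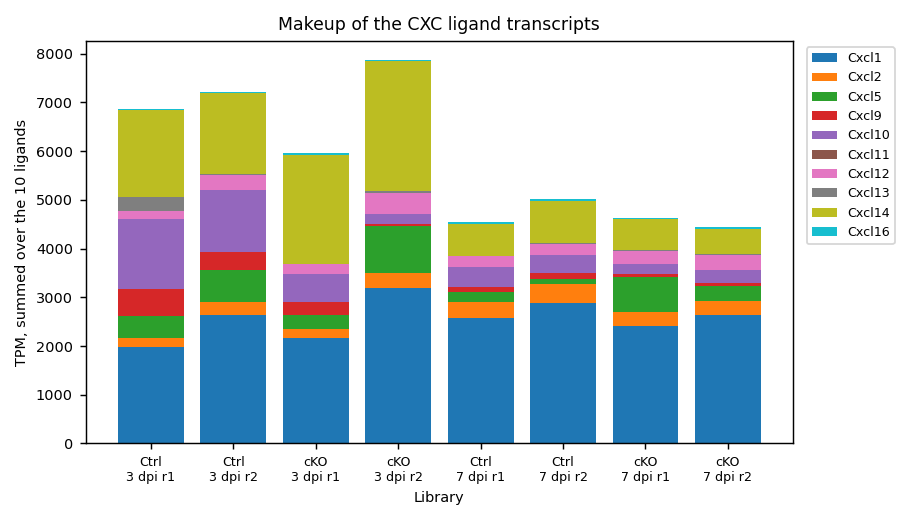
Stacked bars of TPM (y axis) for the 10 CXC ligands in each of the 8 libraries (x axis; r1 and r2 are the replicates), 1 colour per gene. The sum was higher at 3 dpi (5955 to 7873 TPM) than at 7 dpi (4441 to 5021 TPM), and Cxcl1 and Cxcl14 together filled most of each bar at 3 dpi.

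Some neighbours in this order could not be separated by their libraries. In Ctrl at 3 dpi, the libraries of Cxcl1, Cxcl14 and Cxcl10 lay apart from each other, while those of Cxcl5 overlapped with Cxcl9, and Cxcl12, Cxcl2 and Cxcl13 each overlapped with the next. In cKO at 3 dpi, Cxcl1 overlapped with Cxcl14, and the genes from Cxcl5 down to Cxcl16 formed a run in which each overlapped with the next. At 7 dpi only Cxcl10 and Cxcl2 overlapped in Ctrl. In cKO at 7 dpi, Cxcl14 overlapped with Cxcl5, and Cxcl12, Cxcl2 and Cxcl10 overlapped in sequence.

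**Figure D2:**
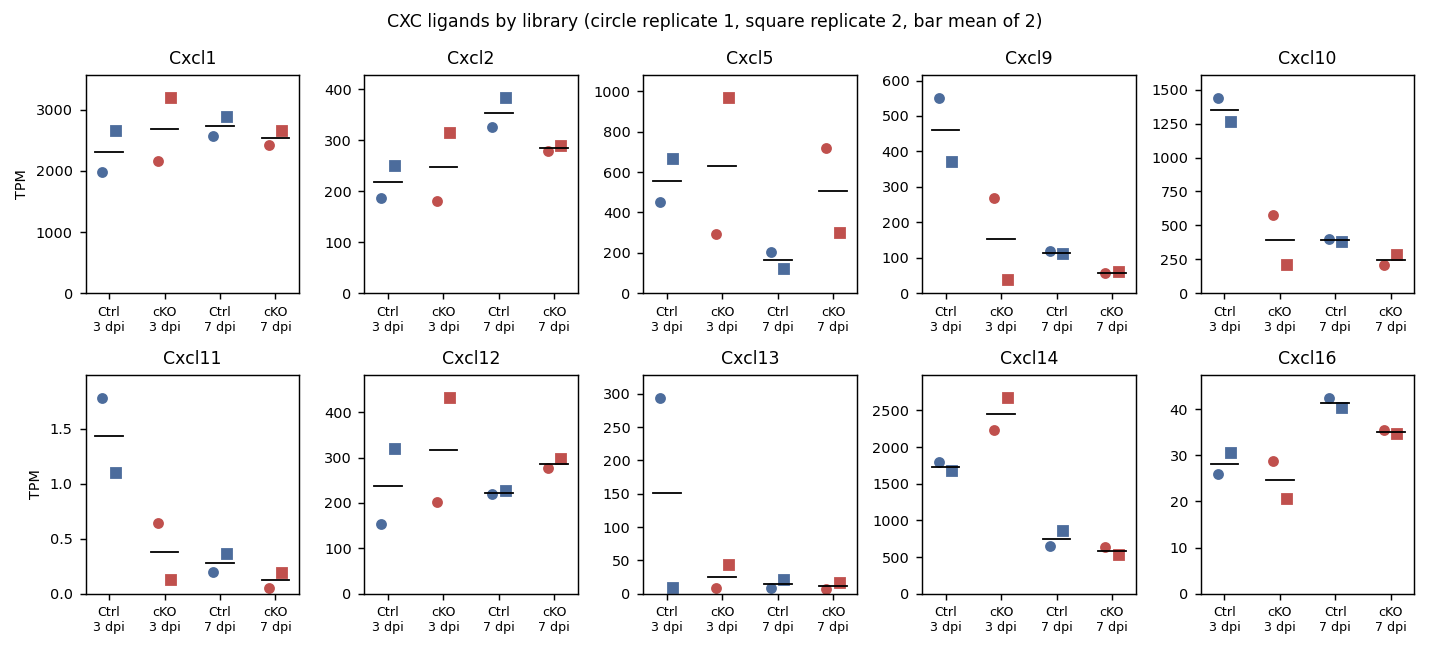
TPM of each CXC ligand (y axis, linear from 0, own scale per panel) in the 4 groups (x axis; blue Ctrl, red cKO), with circles for replicate 1, squares for replicate 2 and a bar at the mean of the 2 libraries. Cxcl9, Cxcl10 and Cxcl11 lay lower in both cKO libraries than in both Ctrl libraries at each day, and Cxcl13 was high in 1 library, Ctrl replicate 1 at 3 dpi (293 TPM).

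Among the ligands of Cxcr3, Cxcl10 and Cxcl11 passed at 3 dpi and Cxcl9 at 7 dpi, each lower in Osr1cKO FAPs. The rules of the days differed, with an unadjusted p at 3 dpi and an adjusted p at 7 dpi. By the 3 dpi rule Cxcl10 was lower at 7 dpi as well (limma, unadjusted p = 0.00151), and Cxcl11 was not tested there. The neutrophil attractants Cxcl1, Cxcl2 and Cxcl5 were not told apart between genotypes at 3 dpi. The test was limma on log2(scaled TPM + 1), and no gene of the 15699 tested at 3 dpi had an adjusted p under 0.336. A call at this day needed a fold change over 1.2 and an unadjusted p under 0.05, the thresholds of the paper for 3 dpi. By that rule Cxcl10 and Cxcl11 fell, 2 of 10 members, and none rose. Among all genes tested, 3.87% fell and 2.40% rose. The median difference of the 10 members was -0.12 on the log2 scale, beside 0.0097 for all genes.

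Cxcl10, which recruits Cxcr3+ lymphocytes, was at 1438 and 1264 TPM in Ctrl and at 573 and 206 TPM in cKO at 3 dpi. The groups did not overlap, and the cKO libraries differed from each other 2.78-fold. The log2 difference was -1.96 (SE 0.50, 95% interval -3.26 to -0.67; limma, unadjusted p = 0.0113, adjusted p = 0.774). It was -1.20 without cKO replicate 2 and -2.73 without cKO replicate 1, and the call was kept in both cases.

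Cxcl9, the other strongly expressed Cxcr3 ligand, was at 551 and 370.0 TPM in Ctrl and at 268 and 38.9 TPM in cKO at 3 dpi. Both cKO libraries were below both Ctrl libraries, but they differed 6.88-fold from each other. The log2 difference of -2.12 (SE 0.91, 95% interval -4.45 to 0.20) did not pass (limma, unadjusted p = 0.0659, adjusted p = 0.811). It was -0.72 without cKO replicate 2 and -3.53 without cKO replicate 1, and it passed in the second case.

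Cxcl11 was barely present, at 1.78 and 1.10 TPM (84 and 53 fragments) in Ctrl and at 0.646 and 0.121 TPM (31 and 6 fragments) in cKO at 3 dpi. Its groups did not overlap, and its log2 difference was -0.82 (SE 0.26; limma, unadjusted p = 0.0242, adjusted p = 0.774) on a scale that understates the change of a gene near 1 TPM. The call was lost without Ctrl replicate 1 (-0.63) and without cKO replicate 2 (-0.54). Because of the overlap with Gm2673, part of these fragments could belong to the other strand.

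Across the members, 3 had both cKO libraries below both Ctrl libraries at 3 dpi (Cxcl9, Cxcl10 and Cxcl11), and 1 had both above (Cxcl14). The same held for 18.0% and 18.2% of all genes tested. The cKO replicate 2 library was the lowest of the 4 for all 3 Cxcr3 ligands, and its macrophage and monocyte marker sum, 11.9 TPM, was also the lowest beside 21.4 to 22.4 TPM in the other 3. The FAP marker Ly6a, which encodes Sca-1, fell at 3 dpi as well, from 5407 and 4232 TPM in Ctrl to 3058 and 2020 TPM in cKO (-0.94; limma, unadjusted p = 0.0396), again with cKO replicate 2 as the lowest library. Ly6a was the only FAP marker called at 3 dpi. Of the 8, 4 had a log2 difference above 0 and 4 below, with a median of 0.017. The part of these markers in the result was not tested.

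Cxcl14 was at 1789 and 1669 TPM in Ctrl and at 2236 and 2665 TPM in cKO at 3 dpi. The cKO libraries were higher without overlap, with a log2 difference of 0.50 (SE 0.22, 95% interval -0.06 to 1.06) that did not pass (limma, unadjusted p = 0.0713, adjusted p = 0.818).

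The other 6 members overlapped between genotypes at 3 dpi, and the 95% intervals of their log2 differences all included 0. Cxcl1, the most abundant ligand, was at 1987 and 2645 TPM in Ctrl and at 2166 and 3190 TPM in cKO, with an interval from -0.59 to 0.99. Cxcl2 had an interval from -0.62 to 0.91 and Cxcl5, which acts on the same receptor, one from -1.52 to 1.44. These intervals leave room for changes of more than 1.5-fold in either direction.

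Cxcl12, the ligand of Cxcr4 and Ackr3, was at 153 and 319 TPM in Ctrl and at 201 and 431 TPM in cKO at 3 dpi, so replicates within a genotype differed more (2.08-fold and 2.14-fold) than the genotype means. Cxcl16 was at 25.9 and 30.5 TPM in Ctrl and at 28.7 and 20.5 TPM in cKO. Cxcl13, the B cell attractant, was at 293 TPM in Ctrl replicate 1 and at 7.79, 8.18 and 42.3 TPM in the other 3 libraries. The fragments behind these values were 4199 in the high library and 114, 119 and 637 in the others, so the gap does not rest on few fragments. Without Ctrl replicate 1 the log2 difference of Cxcl13 turned from -1.35 to 1.17, and without Ctrl replicate 2 it was -3.88.

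At 7 dpi, where the libraries were pools of mice, 1 of the 9 members tested passed between genotypes, Cxcl9. The call at this day needed a fold change over 1.2 and a Benjamini-Hochberg adjusted p under 0.1, the thresholds of the paper for 7 dpi. Of 16578 genes, 11 (0.0664%) met this rule in limma. With limma-voom on recovered fragments, 199 genes met it. The paper applied these thresholds with DESeq2 and reported far more genes, so 11 is not its count. Cxcl9 fell. By the rule of the earlier day, an unadjusted p under 0.05, 1 of 9 members tested was higher (Cxcl5) and 5 were lower (Cxcl2, Cxcl9, Cxcl10, Cxcl14 and Cxcl16), beside 5.30% and 5.83% of all genes. The median log2 difference was -0.44 over the 9 members and 0.0063 over all genes.

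Cxcl9 was at 118 and 112 TPM in Ctrl and at 56.4 and 60.7 TPM in cKO at 7 dpi. Replicates differed by no more than 1.08-fold, and the groups lay far apart. The log2 difference was -1.09 (SE 0.07, 95% interval -1.28 to -0.91; limma, adjusted p = 0.0943). The value stayed between -1.14 and -1.05 when any 1 library was left out, but the adjusted p rose above 0.1 without cKO replicate 1 (0.119) and without cKO replicate 2 (0.120), where fewer libraries entered the fit.

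Cxcl10 was at 403 and 378 TPM in Ctrl and at 206 and 281 TPM in cKO at 7 dpi. The groups did not overlap, and the log2 difference was -0.83 (SE 0.14; limma, unadjusted p = 0.00151, adjusted p = 0.222). Cxcl11, with 8 and 15 fragments in Ctrl and 2 and 7 in cKO, was under the filter on low values and was not tested.

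**Figure D3:**
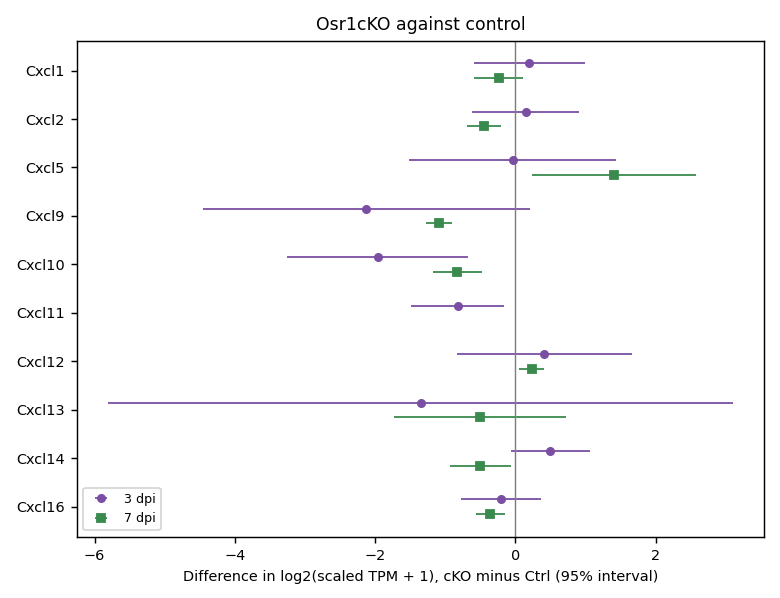
Difference in log2(scaled TPM + 1) between cKO and Ctrl (x axis, 0 is no difference) for each CXC ligand (y axis) at 3 dpi (circles) and 7 dpi (squares), with 95% intervals from limma; Cxcl11 was not tested at 7 dpi. Cxcl9 (-2.12 and -1.09) and Cxcl10 (-1.96 and -0.83) lay to the left at both days, and Cxcl14 changed side, from 0.50 to -0.50.

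Cxcl5 was the member with the highest cKO value relative to Ctrl at 7 dpi, at 719 and 296 TPM in cKO against 207 and 121 TPM in Ctrl. The groups did not overlap, although the cKO libraries differed 2.43-fold. The log2 difference was 1.41 (SE 0.47, 95% interval 0.23 to 2.58; limma, unadjusted p = 0.0270, adjusted p = 0.346). It was 0.73 without cKO replicate 1 and 2.07 without cKO replicate 2. Cxcl1 and Cxcl2, which act on the same receptor, did not share this direction: Cxcl2 was at 325 and 383 TPM in Ctrl and at 279 and 289 TPM in cKO (-0.44, SE 0.10; limma, adjusted p = 0.262), and Cxcl1 was at 2570 and 2881 against 2421 and 2643 TPM, with an interval from -0.59 to 0.12.

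Cxcl14 was at 647 and 858 TPM in Ctrl and at 633 and 525 TPM in cKO at 7 dpi, a log2 difference of -0.50 (SE 0.17; limma, unadjusted p = 0.0310, adjusted p = 0.352). Cxcl16 was at 42.3 and 40.2 TPM in Ctrl and at 35.5 and 34.7 TPM in cKO, a difference of -0.36 (SE 0.08; limma, adjusted p = 0.274). Cxcl12 went the other way without overlap, from 219.5 and 226 TPM in Ctrl to 277 and 296 TPM in cKO, but its difference of 0.23 was under the fold threshold. Cxcl13 was at 8.71 and 21.2 TPM in Ctrl and at 6.60 and 15.7 TPM in cKO, and its groups overlapped.

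In the deposited TPM, 6 members (Cxcl2, Cxcl9, Cxcl10, Cxcl11, Cxcl14 and Cxcl16) had both cKO libraries below both Ctrl libraries at 7 dpi and 2 (Cxcl5 and Cxcl12) had both above. For all genes the shares were 10.7% below and 42.8% above. This imbalance lies in the deposited values: without scaling, the median of all genes was 0.11 higher in cKO at this day on the log2 scale, and the scaling used for the tests brought it to 0.0063. The signs of the differences of the CXC ligands tested at 7 dpi were the same without scaling. The call of Cxcl9 was then lost (-0.96, with an adjusted p of 0.101 in limma).

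The course from 3 to 7 dpi asked how ligand levels moved as the muscle healed. In Ctrl, Cxcl9, Cxcl10, Cxcl11, Cxcl5 and Cxcl14 fell and Cxcl2 and Cxcl16 rose, which made 7 of 10 members with a fold change over 1.2 and an adjusted p under 0.1. Among all genes, 27.3% fell and 22.7% rose by the same rule, so changes between days were common. The median log2 difference of the members was -1.03, beside -0.01 for all genes. In cKO, Cxcl14 fell and Cxcl16 rose, 2 of the 9 members tested, beside 29.4% and 27.2% of all genes.

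In Ctrl, Cxcl9 fell by 1.91 on the log2 scale (SE 0.20; limma, adjusted p = 0.00519) and Cxcl10 fell by 1.73 (SE 0.15; limma, adjusted p = 0.00391). Cxcl5 fell by 1.72 (SE 0.34; limma, adjusted p = 0.0177), and the low-level Cxcl11 fell by 0.90. Cxcl2 rose by 0.76 (SE 0.19; limma, adjusted p = 0.0348) and Cxcl16 by 0.59 (SE 0.14; limma, adjusted p = 0.0285). All 7 differences kept their sign when any 1 library was left out, with Cxcl9 between -2.13 and -1.64 and Cxcl10 between -1.77 and -1.62. The calls depended on which library was left out, for the members as for all genes, since 1 library then stood for a group.

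In cKO, Cxcl9 and Cxcl10 started from lower and more scattered values, and their differences of -0.86 (SE 0.86) and -0.58 (SE 0.49) had intervals that included 0. Without cKO replicate 1 at 3 dpi both turned positive, at 0.51 and 0.15, and without cKO replicate 2 they were -2.27 and -1.35. The calls in cKO also depended on which library was left out, for the members as for all genes.

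**Figure D4:**
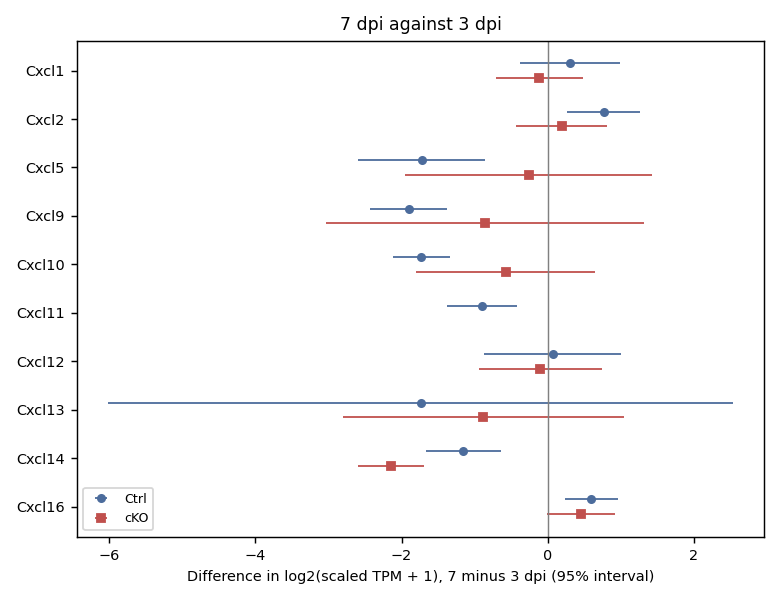
Difference in log2(scaled TPM + 1) between 7 and 3 dpi (x axis, 0 is no difference) for each CXC ligand (y axis) in Ctrl (circles) and cKO (squares), with 95% intervals from limma; Cxcl11 was not tested in cKO. Cxcl14 was lower at 7 dpi in both genotypes (-1.16 in Ctrl and -2.14 in cKO), and Cxcl9 and Cxcl10 had narrow intervals in Ctrl and wide ones in cKO.

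Cxcl14 fell in both genotypes, by 1.16 in Ctrl (SE 0.20; limma, adjusted p = 0.0132) and by 2.14 in cKO (SE 0.18; limma, adjusted p = 0.00146). Cxcl16 rose by 0.45 in cKO (SE 0.18; limma, adjusted p = 0.0941), a call lost without either 7 dpi library and without cKO replicate 2 at 3 dpi (0.19). Cxcl1 did not pass in either genotype, with intervals from -0.38 to 0.98 in Ctrl and from -0.72 to 0.48 in cKO, and it outnumbered Cxcl2 by 10.2 to 11.9 times at 3 dpi and by 7.53 to 9.15 times at 7 dpi. The macrophage marker sum was higher in all 4 libraries of 7 dpi than in those of 3 dpi, whereas Cxcl9 and Cxcl10 in Ctrl were lower, and the part of these markers was not tested.

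Whether the genotype effect differed between the days was tested as an interaction over all 8 libraries. No member and no gene of the 17371 tested passed at an adjusted p under 0.05 (0.00%), and 6.95% of genes, with 1208 genes in all, had an unadjusted p under 0.05 in limma. Cxcl14 was the member among those 1208: its genotype difference at 7 dpi minus that at 3 dpi was -1.05 (SE 0.28; limma, unadjusted p = 0.00671, adjusted p = 0.592). For Cxcl9 and Cxcl10 the interaction was 0.99 (95% interval -1.51 to 3.48) and 1.09 (-0.32 to 2.50), and for Cxcl5 it was 1.40 (-0.71 to 3.51), so a difference between days was not detectable with these libraries.

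The receptors of these ligands were mostly absent from the sorted cells. Of 8 receptor genes, Cxcr1 and Cxcr3 were at 0 in all libraries, and Cxcr2, Cxcr5 and Cxcr6 did not exceed 0.336 TPM and were not tested. The scavenging receptor Ackr3 was the most abundant, at between 221 and 356 TPM. Cxcr4, which answers to Cxcl12, was at between 3.83 and 15.2 TPM and did not pass between genotypes at either day. Ackr1, a decoy receptor for inflammatory chemokines, was at 21.1 and 14.7 TPM in Ctrl and at 10.4 and 11.0 TPM in cKO at 3 dpi, and it fell by 0.67 on the log2 scale (SE 0.21; limma, unadjusted p = 0.0262, adjusted p = 0.774).

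Of 5 further CXC ligands, Cxcl15 and Cxcl17 were under the filter. Cxcl3, a relative of Cxcl1 and Cxcl2, was at 16.5 and 25.1 TPM in Ctrl and 11.2 and 24.9 TPM in cKO at 3 dpi, and at 7 dpi both cKO libraries (22.3 and 11.9 TPM) were above both Ctrl libraries, of which the higher was at 10.5 TPM. Pf4, a platelet chemokine, was at 1.03 and 0.503 TPM in Ctrl and at 2.60 and 2.31 TPM in cKO at 7 dpi. These values rested on only 8 and 4 fragments in Ctrl and on 18 and 16 in cKO. The log2 difference of 0.91 (SE 0.20) had an unadjusted p under 0.05 in limma (adjusted p = 0.262). None of these 5 genes passed between genotypes at either day by the rule of that day, and they are named although they did not.

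Among 6 proteases that cut or shed CXC ligands, none passed between genotypes. Mmp2, a matrix metalloprotease that trims Cxcl12, was at between 1066 and 3335 TPM, and the sheddase Adam10, which releases Cxcl16 from the membrane, at between 43.3 and 96.3 TPM. The peptidase Dpp4, which shortens Cxcl10 and Cxcl12, was at between 5.66 and 39.4 TPM; these 3 were picked for their known substrates after their values were seen.

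Interferon signalling induces the Cxcr3 ligands in many cells. Of 13 genes of interferon reception and signalling, 11 had a log2 difference below 0 between cKO and Ctrl at 3 dpi, and 2 of them fell by the 3 dpi rule, beside 3.87% of all genes. Irf7, a transcription factor of the type I interferon response, was at 872 and 528 TPM in Ctrl and at 384 and 87.8 TPM in cKO (-1.87, SE 0.73; limma, unadjusted p = 0.0495, adjusted p = 0.784). Stat2, a component of the complex that binds the ISRE, was at 210.1 and 123 TPM in Ctrl and at 98.6 and 35.6 TPM in cKO (-1.42, SE 0.54; limma, unadjusted p = 0.0452, adjusted p = 0.784). As for Cxcl9 and Cxcl10, cKO replicate 2 was the lowest of the 4 libraries for both.

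At 7 dpi, 11 of the 13 again had a log2 difference below 0, and none passed at an adjusted p under 0.1. Some of these signs depended on the scaling. In the deposited TPM of 7 dpi, Ifngr2 and Ifnar2 had a higher mean in cKO than in Ctrl, as did Ifnar1 and Tyk2. The median log2 difference of the list was -0.30 at 3 dpi and -0.22 at 7 dpi, beside 0.0097 and 0.0063 for all genes. The 8 FAP markers also had differences below 0 at 7 dpi, with a median of -0.16. In the deposited TPM, Pdgfra and Cd34 had a higher mean in cKO at this day. The 5 genes with an unadjusted p under 0.05 and a fold over 1.2 at 7 dpi were Jak2, Irf8, Irf9, Irf1 and Stat2, all lower and named after their values were seen, beside 5.83% of all genes that were lower by this rule. Irf1, a factor induced by interferon gamma, was at 256 and 255 TPM in Ctrl and at 160.6 and 237 TPM in cKO (-0.52; limma, adjusted p = 0.334). The receptor genes Ifngr1, Ifngr2, Ifnar1 and Ifnar2 were expressed in all libraries, at between 44.4 and 174 TPM.

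**Figure D5:**
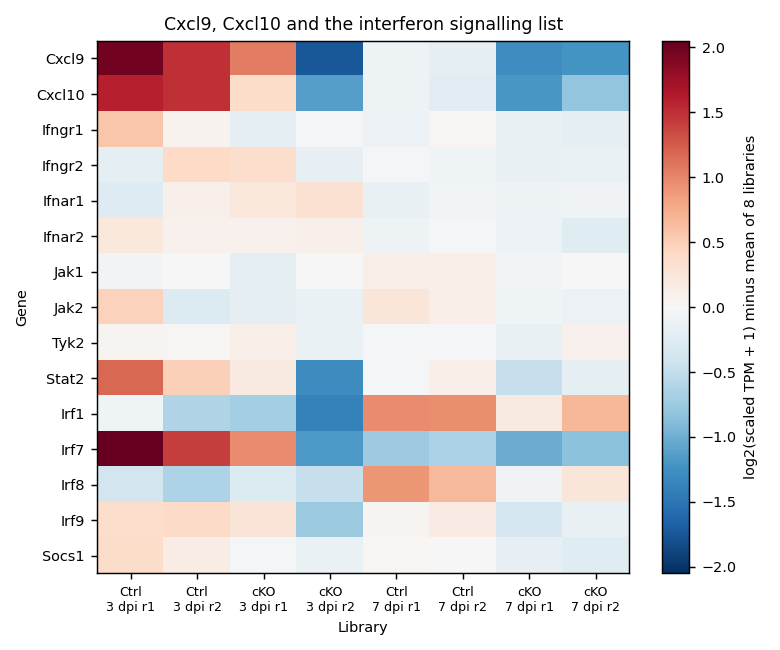
Log2(scaled TPM + 1) minus the mean of each gene over the 8 libraries (colour, red above and blue below the mean) for Cxcl9, Cxcl10 and 13 interferon signalling genes (y axis) in each library (x axis). Cxcl9, Cxcl10, Stat2 and Irf7 were high in both Ctrl libraries at 3 dpi and lowest at that day in cKO replicate 2. Irf1 was above its mean at 7 dpi in both genotypes, and Irf8 was highest in Ctrl at 7 dpi.

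Of 15 genes of NF-kB, TNF, IL-1 and IL-17 signalling, which drives Cxcl1, Cxcl2 and Cxcl5 in many cells, 12 had a log2 difference below 0 between cKO and Ctrl at 3 dpi and 1 fell, beside 3.87% of all genes. That gene was Tnfaip3, a feedback inhibitor of NF-kB, at 54.5 and 69.7 TPM in Ctrl and at 44.0 and 43.9 TPM in cKO (-0.48, SE 0.17; limma, unadjusted p = 0.0355, adjusted p = 0.784). At 7 dpi, 12 of 15 had one below 0 and none passed at an adjusted p under 0.1. These signs depended on the scaling. In the deposited TPM of 7 dpi, only Nfkb2, Tnfaip3, Il17ra and Zfp36 had a lower mean in cKO than in Ctrl. Rela, for one, had means of 138.0 TPM in Ctrl and 142.7 TPM in cKO. The median differences of the list, -0.17 and -0.10 on the log2 scale, were smaller than those of the interferon list. The FAP markers had a median of -0.16 at 7 dpi.

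For each member, the genes whose centred log2 profile over the 8 libraries lay closest were found by the root mean square (RMS) difference. Closest to Cxcl9 were Cxcl10 (RMS 0.38), Irf7 (0.38) and Ifi47 (0.41). Closest to Cxcl10 were Ifit1 (0.22), Gbp6 (0.25) and Ifi47 (0.25), and Ifit1 ran from 499 and 310.0 TPM in Ctrl to 188 and 63.1 TPM in cKO at 3 dpi. Closest to Cxcl5 was Saa3 (0.38), an acute phase gene, at 37.0 and 30.7 TPM in Ctrl and at 112 and 87.9 TPM in cKO at 7 dpi. These profiles share the same 8 libraries and are a description.

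The RMS difference tends to be larger for a gene that varies more, and Cxcl13 had an SD of 1.76 over the libraries on this scale. Its nearest genes were Serpina3c (0.63), Galnt15 (0.81) and Tarm1 (0.84). All 3 were highest in Ctrl replicate 1 at 3 dpi, the library with 293 TPM of Cxcl13. That library also had the lowest FAP marker sum (26936 TPM). Col1a1 (12404 TPM) and Col3a1 (6401 TPM), which made up most of this sum, were lowest there, as were Cd34 and Dpt. Ly6a (5407 TPM) and Pdgfra (365 TPM) were instead highest there, and Dcn and Pdgfrb were neither. For the endothelial receptor gene Kdr, that library had 16.8 TPM beside 0.880 to 2.25 TPM in the other 7. None of the other endothelial markers was highest there over all 8 libraries. Among the libraries of 3 dpi alone, Tek (25.4 beside 14.9 to 16.5 TPM) and Pecam1 (1.19 beside 0.584 to 1.10 TPM) were highest there. Cdh5 (0.821 TPM), Emcn and Cldn5 were not. The part of these features in the value of Cxcl13 was not tested. For Cxcl14, the nearest genes were Cdc25b (0.22), Sema6b (0.23) and Gm10167 (0.24). For Cxcl12 they were Ptgfr, Scd2 and Nid2 (0.20 to 0.21). For Cxcl1, Cxcl2, Cxcl11 and Cxcl16 the nearest genes, led by Pigyl, Ripor3, Cadm4 and Kctd21, lay within 0.07 to 0.13. These members varied less, with SDs from 0.24 (Cxcl1) to 0.49 (Cxcl11), so the RMS values of different members do not rank likeness.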

How the data were processed

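RNA was measured in 8 libraries of sorted FAPs, 2 per genotype and day. STAR alignment of the reads to mm10 and DESeq2 normalization were run by the authors, who deposited TPM per gene symbol; the counter and its annotation are not given in the sources used here. Each file had 55385 entries, and the 109 further entries of 106 repeated symbols were left out. Fragment numbers were recovered from TPM steps with GENCODE release 21 exon lengths: under 50 fragments, 98.7% to 98.9% of values were whole (tolerance 0.02), and depths were 36516548 to 51096425 fragments. After scaling with a trimmed mean of log ratios (0.3 trimmed from each end), limma (lmFit, eBayes with trend) was run on log2(scaled TPM + 1) for genes with at least 10 fragments in 2 libraries and 15 in all, or a mean TPM of 1 where no length was known. P-values were adjusted over all genes tested and measure the spread between these libraries, each 1 mouse at 3 dpi and a pool at 7 dpi. The procedure was tested on simulated data. The members, gene lists and named genes (all members, receptors detected, list genes that passed, nearest profiles) were chosen with earlier results of these data known, and 1 gene was left out of these lists and is not reported here. Motifs were searched in RefSeq windows. Other scalings, filters, pseudocounts and thresholds, robust eBayes, limma-voom, a replicate block, 1 fit of all libraries and the omission of each library were tried. R 4.3.3 with limma 3.58.1 was used, and Python 3.11.15 with pandas 2.3.3 and with NumPy 2.4.6.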

Additional observations from a re-analysis of the deposited data

Results flagged for a closer look

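The genotype difference of Cxcl14 at 7 dpi minus that at 3 dpi was -1.05 on the log2 scale, with both cKO libraries above both Ctrl libraries at 3 dpi (2236 and 2665 against 1789 and 1669 TPM) and both below at 7 dpi (633 and 525 against 647 and 858 TPM). It was picked out because the libraries moved in opposite directions at the 2 days. The interaction had an unadjusted p of 0.00671 in limma and an adjusted p of 0.592, and did not pass over all genes. When 1 library was left out, the value lay between -1.24 and -0.85.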

How the results depend on the processing

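Of the values recomputed under settings other than leaving out a library, 401 kept their direction and side of the threshold, 9 lost a call, 8 gained one and 1 reversed; the count excludes summaries over the members. The reversal was Cxcl12 between days in Ctrl, at -0.020 without a filter. Members called at 3 dpi (2) numbered 1 with no filter, 4 with all 8 libraries in 1 fit, 0 at an adjusted p under 0.1, and 1 to 3 with a library left out. At 7 dpi (1) they numbered 0 without scaling, 0 with a mean TPM of 1 as the filter, 0 with no filter, 2 with limma-voom on recovered fragments, 0 with all 8 libraries, 6 at an unadjusted p under 0.05, and 0 to 5 with a library left out. Between days they numbered 0 to 10 in Ctrl (7) with a library left out, and in cKO (2) 1 with no filter, 1 with all 8 libraries, and 1 to 6 with a library left out. The interaction (0) gave 1 at an unadjusted p under 0.05 and 0 with any library left out. With a library left out, 170 single values kept direction and side, 18 lost a call, 16 gained one and 28 reversed. Over all genes, the count at 3 dpi (985) was 1834 with all 8 libraries and 371 to 2804 with a library left out. At 7 dpi (11) it was 0 without scaling, with either other filter and with all 8 libraries, 27 with the replicate block, 199 with limma-voom and 7 to 468 with a library left out. In Ctrl between days (8259) it was 0 to 9954, and in cKO (9215) 5555 to 9033, with a library left out. For the interaction (0) it was 3 with a pseudocount of 0.1, 1 with the TPM filter, 30 with no filter and 0 to 71 with a library left out. The causes were not tested.

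Signs that turned when a library was left out had these log2 ranges. At 3 dpi they were -0.054 to 0.45 for Cxcl1, -0.22 to 0.51 for Cxcl2, -0.88 to 0.79 for Cxcl5, -0.13 to 0.94 for Cxcl12, -3.88 to 1.17 for Cxcl13 and -0.46 to 0.055 for Cxcl16. At 7 dpi the range was -1.10 to 0.086 for Cxcl13. Between days in Ctrl they were -0.48 to 0.65 for Cxcl12 and -4.21 to 0.77 for Cxcl13. In cKO they were -0.40 to 0.13 for Cxcl1, -0.21 to 0.55 for Cxcl2, -1.13 to 0.56 for Cxcl5, -2.27 to 0.51 for Cxcl9, -1.35 to 0.15 for Cxcl10, -0.65 to 0.41 for Cxcl12 and -2.01 to 0.20 for Cxcl13. For the interaction they were -0.41 to 2.38 for Cxcl9, -0.79 to 0.34 for Cxcl12, -1.69 to 3.29 for Cxcl13 and -0.45 to 0.051 for Cxcl16.

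Same-numbered libraries of the genotypes correlated at -0.117 (3 dpi) and 0.0657 (7 dpi), so the numbers were not taken to pair the samples. With the replicate block, 3 members were called at 3 dpi, with Cxcl9 added, 1 at 7 dpi, 7 between days in Ctrl, 3 in cKO and 0 for the interaction. With the numbers crossed, an alternative chosen after seeing the data, 2 were called at 3 dpi and 7 between days in Ctrl. Depth limited Cxcl11, with 2 to 84 fragments per library.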
